A study of Arabidopsis thaliana with 15 samples.

Results

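Jasmonate signalling was examined in Arabidopsis thaliana seedlings at the level of 10 genes, chosen by locus identifier: the activators MYC2, MYC3 and MYC4, the receptor gene COI1, the hormone-conjugating enzyme gene JAR1, the hormone-breakdown genes CYP94B3 and CYP94C1, and the output genes VSP1, VSP2 and TAT3. They are 10 of the 33201 genes listed in the authors' comparison of mutant and wild-type RNA, and all 10 were among the 19868 genes that the authors tested. The mutant was syd-5 in the Col-0 background, which carries a mutation in SPLAYED (SYD), the gene of a chromatin-remodelling ATPase of the SWI/SNF class. Its control was wild-type Col-0 (WT). Both were whole seedlings of 14 days, grown on plates with 16 h of light and 8 h of dark, with no hormone, wounding or other treatment named in the labels, and each was sequenced in 3 RNA libraries. The other 9 of the 15 libraries, ChIP with antibodies against GFP or H3K27me3 and their inputs, were not analysed here. The RNA comparison rests on 1 mutant line, and the labels do not say whether libraries came from separately grown plants, so that any spread between them may be technical.

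Jasmonates are lipid-derived hormones that plants make after wounding, insect feeding and some infections. JAR1 joins jasmonic acid to isoleucine, which gives the active hormone. The hormone brings the F-box protein COI1 together with JAZ proteins, which otherwise repress the MYC transcription factors, and the JAZ proteins are then degraded. The freed MYC factors switch on genes for defence and storage proteins, and also genes of the pathway itself. CYP94 enzymes of the cytochrome P450 class oxidise the hormone and so end the signal.

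The table gives 1 expression value per gene and genotype, read as FPKM (fragments per kilobase of transcript, scaled to the fragments sequenced), a unit that corrects for gene length, so that levels of different genes can be set side by side. It gives no value per library, so that no standard deviation, interval or depth stands behind a single value. The words rose, fell and called are kept for genes whose q-value in the authors' deposited table did not exceed 0.05, where q is the p-value adjusted over all 19868 tested genes by the Benjamini-Hochberg method. Log2 fold changes are the FPKM in syd-5 over the FPKM in WT, and a gene that fell N-fold had N times more FPKM in WT. SYD (AT2G28290) stood at 2.53 FPKM in syd-5 and at 13.1 FPKM in WT (log2 -2.37, with q = 0.000351 in the authors' deposited table), and its listed span is shared with another gene. The FPKM over all listed genes summed to 948154 in syd-5 and to 865406 in WT, and setting these sums equal shifts every log2 fold change by -0.13. That shift is too small to change the direction of any member.

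Of the 10 members 7 fell in syd-5, 2 rose and COI1 was not called. The genes that fell were the 3 outputs, the 3 MYC genes and JAR1, and the genes that rose were the pair that encode hormone breakdown. The outputs fell 7.07-fold to 19.8-fold, the MYC genes 1.30-fold to 2.11-fold, and JAR1 1.82-fold. Of all tested genes 32.1% were called, 18.0% as lower and 14.1% as higher in syd-5. The median log2 fold change was -0.64 over the 10 members and -0.02 over all tested genes. The members were picked with results of this comparison known, so that these counts describe the genes and give no evidence about the pathway as a whole. Beside them, all 5 rapid stress markers (STZ, RHL41, WRKY40, WRKY33 and TCH2), transcripts that climb within minutes of touch or wounding, fell, and their summed level was 407 FPKM in syd-5 and 1206 FPKM in WT. These markers moved in the direction of the 7 members that fell and against that of CYP94B3 and CYP94C1, and their part in the results was not tested. The listed spans of WRKY40 and WRKY33 are shared with other genes, so that their values are less certain.

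**Figure D1:**
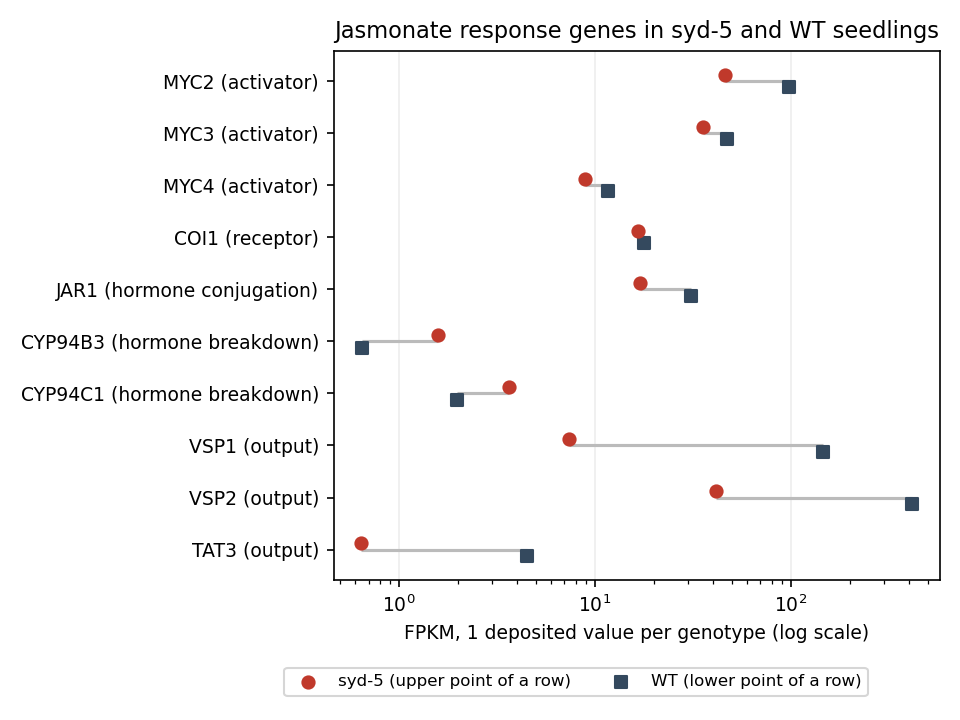
Expression of the 10 members in FPKM on a log axis, with 1 deposited value for syd-5 (circle, upper point of each row) and 1 for WT (square, lower point); a grey line joins the pair and no error can be drawn. VSP1, VSP2 and TAT3 have the longest lines, with syd-5 on the left, CYP94B3 and CYP94C1 lie the other way round, and the points of COI1 nearly coincide.

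MYC2 (AT1G32640, TAIR10 chromosome 1, 11798810 to 11800988) encodes the basic helix-loop-helix factor at the head of the response. It stood at 46.3 FPKM in syd-5 and at 97.5 FPKM in WT (log2 -1.07, with q = 0.000351 in the authors' deposited table). Of the tested genes with a finite ratio, 8.92% had a lower log2 fold change than MYC2. In bulk tissue such a difference can come from fewer cells that express a gene or from less RNA per cell, and these cannot be told apart.

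MYC3 (AT5G46760, chromosome 5, 18974231 to 18976009) encodes a close relative of MYC2 that shares part of its work. MYC3 was at 35.7 FPKM in syd-5 and at 47.5 FPKM in WT (log2 -0.41, with q = 0.0127 in the authors' deposited table). MYC4 (AT4G17880, chromosome 4, 9933366 to 9935586), which encodes the third factor of the group, was at 8.95 FPKM in syd-5 and at 11.6 FPKM in WT (log2 -0.38, with q = 0.0418 in the authors' deposited table). The call of MYC4 was lost when p-values were adjusted over all listed genes (q = 0.0699), and those of MYC3 and MYC4 were lost at q of at most 0.01. All 3 values were lower in syd-5, with the larger difference in MYC2.

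The order MYC2, MYC3, MYC4 was the same in both genotypes, but the levels stood closer together in syd-5. MYC2 was 1.30 times MYC3 in syd-5 and 2.05 times MYC3 in WT. The 3 genes summed to 90.9 FPKM in syd-5 and to 156.6 FPKM in WT, and MYC2 gave 50.9% of that sum in syd-5 and 62.3% in WT. MYC3 gave 39.2% in syd-5 and 30.3% in WT, and MYC4 gave 9.84% in syd-5 and 7.42% in WT. These shares rest on 1 value per gene and genotype, and the difference in share was not tested.

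COI1 (AT2G39940, chromosome 2) encodes the F-box protein of the ubiquitin ligase that perceives the hormone. It stood at 16.5 FPKM in syd-5 and at 17.9 FPKM in WT and was not called (log2 -0.11, with q = 0.792 in the authors' deposited table). No interval can be given for this difference, so that the size of change that could have been missed is unknown. Its listed span, 16666023 to 16675748, overlaps that of ISA1 (AT2G39930), so that COI1 is the 1 member of the 10 whose span is shared and whose value is less certain. ISA1 was at 34.9 FPKM in syd-5 and at 27.1 FPKM in WT and was not called either (q = 0.102 in the authors' deposited table).

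JAR1 (AT2G46370, chromosome 2, 19033741 to 19036659), whose product makes the active hormone, was at 17.0 FPKM in syd-5 and at 31.0 FPKM in WT (log2 -0.87, with q = 0.000351 in the authors' deposited table). The receptor gene and the conjugating enzyme gene therefore stood at nearly equal levels in syd-5, with COI1 at 0.972 times JAR1, against 0.576 times in WT.

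The genes for hormone breakdown rose. CYP94B3 (AT3G48520, chromosome 3, 17974977 to 17976670), which encodes a hydroxylase of the active hormone, was at 1.58 FPKM in syd-5 and at 0.649 FPKM in WT (2.43-fold, log2 1.28, with q = 0.00227 in the authors' deposited table). CYP94C1 (AT2G27690, chromosome 2, 11809306 to 11811215), whose product carries the oxidation further, was at 3.64 FPKM in syd-5 and at 1.98 FPKM in WT (1.84-fold, log2 0.88, with q = 0.00227 in the authors' deposited table). Of the tested genes with a finite ratio, 2.70% had a higher log2 fold change than CYP94B3 and 5.22% a higher one than CYP94C1. Both are low in expression: 13.9% of tested genes lay below CYP94B3 in syd-5 and 3.52% in WT. With 1 FPKM added to each value, which cannot change a direction, the fold of CYP94B3 was 1.56 in place of 2.43.

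The transcript of the conjugating enzyme and those of the oxidising enzymes changed in opposite directions, and their levels stood closer together in syd-5. JAR1 was 10.8 times CYP94B3 in syd-5 and 47.7 times in WT, and it was 4.67 times CYP94C1 in syd-5 and 15.6 times in WT. These are ratios of transcript levels, and hormone levels were not measured in these libraries.

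The output genes had the largest differences among the members. VSP2 (AT5G24770, chromosome 5, 8500476 to 8502224), a vegetative storage protein gene widely used as a jasmonate marker, stood at 41.5 FPKM in syd-5 and at 416 FPKM in WT (log2 -3.33, with q = 0.000351 in the authors' deposited table). It fell by 375 FPKM, and 19 tested genes lost more FPKM. VSP1 (AT5G24780, chromosome 5, 8507590 to 8508957), its close relative, stood at 7.42 FPKM in syd-5 and at 146.6 FPKM in WT (log2 -4.30, with q = 0.000351 in the authors' deposited table). Its log2 fold change was the 72nd lowest of the 19796 tested genes with a finite ratio, and that of VSP2 the 177th lowest.

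Reads can be split wrongly between related genes such as VSP1 and VSP2, so that their sum is the safer measure. How alike their sequences are was not measured here. Together VSP1 and VSP2 held 48.9 FPKM in syd-5 and 563 FPKM in WT, an 11.5-fold lower level in syd-5 (log2 -3.53). VSP1 gave 15.2% of the sum in syd-5 and 26.0% in WT, a difference that was not tested. In WT, VSP2 was the most abundant of the 10 members, at 4.27 times the level of MYC2, and 98.7% of tested genes lay below it. In syd-5, VSP2 stood at 0.896 times the level of MYC2, and 79.8% of tested genes lay below it.

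TAT3 (AT2G24850, chromosome 2, 10582830 to 10585216), which encodes a tyrosine aminotransferase induced by jasmonate, was at 0.641 FPKM in syd-5 and at 4.53 FPKM in WT (log2 -2.82, with q = 0.000351 in the authors' deposited table). Of the tested genes with a finite ratio 1.39% had a lower log2 fold change. With 1 FPKM added to each value the log2 fold change was -1.75. Its level in syd-5 was near the low end of the table, with 5.66% of tested genes below it.

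A set of 5 members (MYC2, JAR1, VSP1, VSP2 and TAT3) had the smallest p that the table holds, 5e-05, which 2831 genes share, so that neither p nor q ranks them in the authors' deposited table. The members spanned a narrower range in syd-5, where the highest was 72.2 times the lowest, than in WT, where it was 641 times the lowest. From highest to lowest the order in syd-5 was MYC2, VSP2, MYC3, JAR1, COI1, MYC4, VSP1, CYP94C1, CYP94B3 and TAT3. In WT the order was VSP2, VSP1, MYC2, MYC3, JAR1, COI1, MYC4, TAT3, CYP94C1 and CYP94B3. Without values per library it cannot be said which neighbours in these orders differ beyond their spread.

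**Figure D2:**
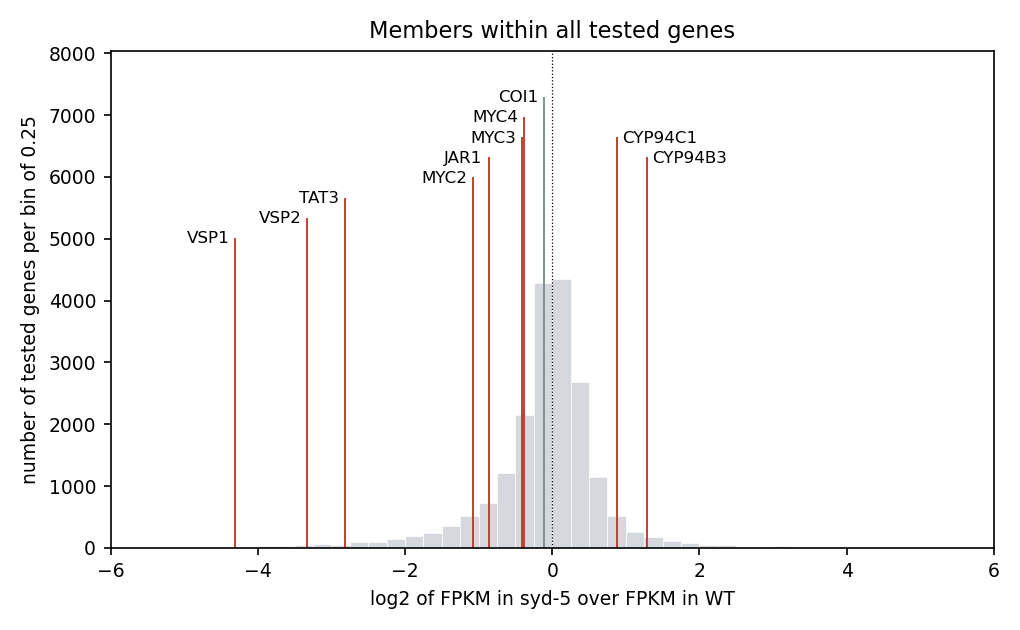
Number of tested genes per bin of log2 fold change (syd-5 over WT, bins of 0.25; 22 genes beyond the axis are counted in the end bins and 72 tested genes listed at 0 in a genotype are left out), with a labelled line at each member's value. Red lines mark called members and the grey line COI1; the height of a line only carries its label. VSP1, VSP2 and TAT3 lie in the thin left tail and CYP94B3 and CYP94C1 on the right shoulder.

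The share of genes called in each direction differed with expression level. Of the 7032 tested genes with a mean of 1 to 10 FPKM over the genotypes, the class of CYP94B3, CYP94C1 and TAT3, 21.6% were lower and 10.5% higher in syd-5. Among the 9706 genes with a mean of 10 to 100 FPKM, which hold the MYC genes, COI1, JAR1 and VSP1, 16.0% were lower and 14.5% higher. Of the 1647 genes with a mean of 100 FPKM or more, the class of VSP2, 13.4% were lower and 33.0% higher. VSP2 is in this class only through its WT value (416 FPKM, against 41.5 FPKM in syd-5). The mean includes the values compared, so that a member's class depends on its own change. No member's direction is therefore read against its class. Counting only called differences of at least 2-fold, 4 members were lower (MYC2, VSP1, VSP2 and TAT3) and 1 was higher (CYP94B3), where 8.27% of all tested genes were lower and 3.29% higher.

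Genes next to the members on the chromosome were read for comparison. The nearest listed gene on each side gave 19 neighbours that are no members, of which 9 were tested. None of the 9 fell, 1 rose and 8 were not called, against 18.0% lower and 14.1% higher among all tested genes, so that so few neighbours stand near the background. VSP2 and VSP1 lie side by side with a pseudogene, AT5G24775, between them, which is listed at 0 in both genotypes, as is AT5G24790 on the far side of VSP1. The gene on the far side of VSP2, AT5G24760, was at 6.62 FPKM in syd-5 and at 7.80 FPKM in WT and was not called (q = 0.319 in the authors' deposited table).

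Beside MYC2, AT1G32630 was at 10.3 FPKM in syd-5 and at 9.87 FPKM in WT, with a gap of 207 bases between the listed spans, and was not called (q = 0.836 in the authors' deposited table). Next to TAT3, AT2G24860 was at 33.3 FPKM in syd-5 and at 35.9 FPKM in WT and was not called (q = 0.625 in the authors' deposited table). The neighbour that rose, AT2G27680, lies beside CYP94C1, which rose too. It was at 260 FPKM in syd-5 and at 194 FPKM in WT (log2 0.42, with q = 0.0174 in the authors' deposited table). Of the other 10 neighbours, which were not tested, no statement can be made.

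**Figure D3:**
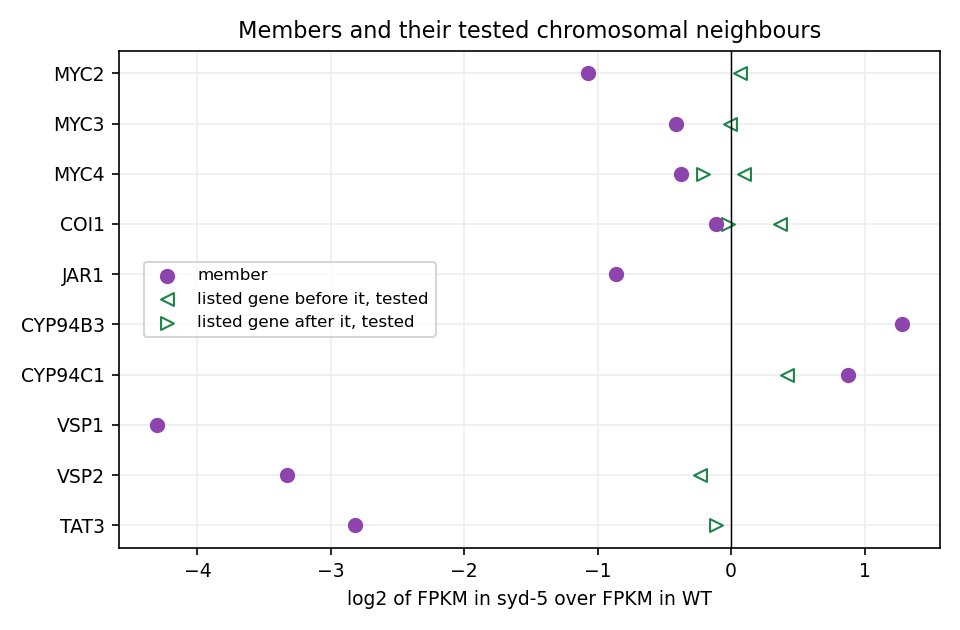
Log2 fold change (syd-5 over WT) of each member (filled circle) and of the listed genes directly before and after it on the chromosome (open triangles), where the authors tested these. The 9 tested neighbours lie between -0.24 and 0.42, while VSP1, VSP2 and TAT3 lie between -4.30 and -2.82.

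Other genes of the pathway were taken from 7 lists with 64 genes, which were likewise chosen with results of these data known. Of the 60 tested, 19 fell, 17 rose and 24 were not called, where 18.0% of all tested genes were lower and 14.1% higher. The median log2 fold change was -0.10 over these 60 genes and -0.02 over all tested genes. The listed spans of 5 of the 60 (JAZ12, AT5G42190, TPL, AT4G16430 and HCHIB) are shared with another gene, so that their values are less certain.

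Of the genes for hormone conversion and breakdown other than the CYP94 members, 6 of 7 tested rose, none fell and 1 was not called, with a median log2 fold change of 1.06. CYP94B1, a further oxidase gene of the CYP94 group, was at 7.18 FPKM in syd-5 and at 2.85 FPKM in WT (log2 1.33, with q = 0.000351 in the authors' deposited table). ILL6, which encodes an amidohydrolase that splits the hormone conjugate, was at 20.5 FPKM in syd-5 and at 9.86 FPKM in WT (log2 1.06, with q = 0.000351 in the authors' deposited table). AT5G05600 rose too, to 27.8 FPKM in syd-5 against 16.5 FPKM in WT. The others that rose were JMT, which encodes a methyltransferase of jasmonic acid (1.23 FPKM in syd-5 and 0.218 FPKM in WT), JRG21 and the sulfotransferase gene ST2A. IAR3, another amidohydrolase gene, was at 37.6 FPKM in syd-5 and at 31.9 FPKM in WT and was not called (q = 0.199 in the authors' deposited table). With CYP94B3 and CYP94C1 included, 8 of 9 tested genes of this kind rose, where 14.1% of all tested genes did.

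Of 7 tested genes for the ubiquitin ligase of COI1, the corepressors and Mediator, 1, TPL, fell and 6 were not called, which is near the 18.0% of all tested genes that were lower. TPL, which encodes the corepressor TOPLESS, was at 38.2 FPKM in syd-5 and at 53.9 FPKM in WT (log2 -0.50, with q = 0.0268 in the authors' deposited table). Its listed span is shared with another gene, and its call was lost at q of at most 0.01. SKP1, the gene of an adaptor subunit of the ligase, was at 273 FPKM in syd-5 and at 276 FPKM in WT (q = 0.953 in the authors' deposited table). AT5G42190, a second gene of that kind, was at 100.5 FPKM in syd-5 and at 106.4 FPKM in WT (q = 0.709 in the authors' deposited table).

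The relatives of MYC2 in the basic helix-loop-helix family had 1 call among 5 tested genes, a share near that of all tested genes, of which 18.0% were lower. The gene that fell was NIG1, at 0.126 FPKM in syd-5 and 0.510 FPKM in WT (q = 0.0289 in the authors' deposited table), a low value in both. AIB was at 34.3 FPKM in syd-5 and at 37.8 FPKM in WT, and AT4G16430 at 12.8 FPKM in syd-5 and 14.6 FPKM in WT, neither of them called. AT1G01260 was at 7.20 FPKM in syd-5 and at 9.11 FPKM in WT (log2 -0.34, with q = 0.0765 in the authors' deposited table), and AT4G00870 at 0.0809 FPKM in syd-5 and 3.31 FPKM in WT (log2 -5.36, with q = 0.115 in the authors' deposited table), both named after their values were seen. All 5 relatives had lower values in syd-5, but 4 of these differences were not called. The median log2 fold change over all tested genes was -0.02, so that a lower value alone is common.

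The other outputs of the MYC branch held calls in both directions. Of 11 tested, 4 fell, 3 rose and 4 were not called, against 18.0% lower and 14.1% higher among all tested genes. Their median log2 fold change was -0.07, and their difference from VSP1, VSP2 and TAT3 was not tested. MBP2, which encodes a myrosinase-binding protein and has a close copy, was at 1.83 FPKM in syd-5 and at 14.5 FPKM in WT (log2 -2.99, with q = 0.000351 in the authors' deposited table). NAC019, a transcription factor gene, was at 4.81 FPKM in syd-5 and at 24.1 FPKM in WT (log2 -2.32, with q = 0.000351 in the authors' deposited table). CLH1, a chlorophyllase gene, rose to 249 FPKM in syd-5 against 105 FPKM in WT (log2 1.24, with q = 0.000351 in the authors' deposited table). The remaining called genes were named after their values were seen. NAC3 rose to 62.8 FPKM in syd-5 against 28.7 FPKM in WT, and RD26 to 57.9 FPKM against 33.2 FPKM (log2 1.13 and 0.81). JR1 and MBP1 fell (log2 -0.89 and -1.22).

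The most abundant of the list's genes without a call were CORI3 and ARGAH2. CORI3, which like TAT3 belongs to the aminotransferase family, was at 71.7 FPKM in syd-5 and at 75.3 FPKM in WT (q = 0.771 in the authors' deposited table), and the arginase gene ARGAH2 differed by -0.07 on the log2 scale (q = 0.782 in the authors' deposited table). NATA1, named here after its values were seen, was at 0.0476 FPKM in syd-5 and at 2.16 FPKM in WT and was not called (q = 0.413 in the authors' deposited table).

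The ERF branch is the arm of jasmonate signalling that acts with ethylene. Of its 5 tested genes 4 fell and 1 rose, where 18.0% of all tested genes were lower and 14.1% higher. ERF1, a transcription factor gene of this arm, was at 0.526 FPKM in syd-5 and at 6.95 FPKM in WT (log2 -3.72, with q = 0.000351 in the authors' deposited table). The basic chitinase gene HCHIB was at 11.5 FPKM in syd-5 and at 50.5 FPKM in WT, and PR4 was at 115 FPKM in syd-5 and at 268 FPKM in WT, both called as lower. ORA59, named here as the only gene of the 5 that rose, was at 31.3 FPKM in syd-5 and at 13.4 FPKM in WT. PDF1.2, also named after its values were seen, fell. It was at 0.286 FPKM in syd-5 and at 7.01 FPKM in WT (log2 -4.62, with q = 0.0114 in the authors' deposited table).

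Upstream, genes for jasmonate synthesis and the JAZ repressors held calls in both directions. Among 12 synthesis genes there were 6 that fell, 2 that rose and 4 without a call. Among 13 JAZ genes there were 3 that fell, 5 that rose and 5 without a call, where the background was again 18.0% lower and 14.1% higher. In the allene oxide cyclase family, which makes the precursor ring of the hormone and consists of close copies, AOC3 and AOC4 fell (log2 -1.37 and -1.12). AOC2 and AOC1 rose (log2 1.02 and 0.91), and AOC1 was named after its values were seen. The copies that rose were the abundant ones. AOC2 was at 509 FPKM in syd-5 and 252 FPKM in WT, and AOC1 at 119 FPKM and 63.6 FPKM. AOC3 was at 4.53 FPKM in syd-5 and 11.7 FPKM in WT, and AOC4 at 9.81 FPKM and 21.3 FPKM. The genes AOS and OPR3, single steps before and after that of the cyclases, were not called (log2 -0.17 and 0.14). Of the repressor genes, JAZ4 fell (log2 -1.60), JAZ6 and JAZ7 rose (log2 1.36 and 3.43), and JAZ11 and JAZ12 were not called (log2 -0.30 and -0.26).

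**Figure D4:**
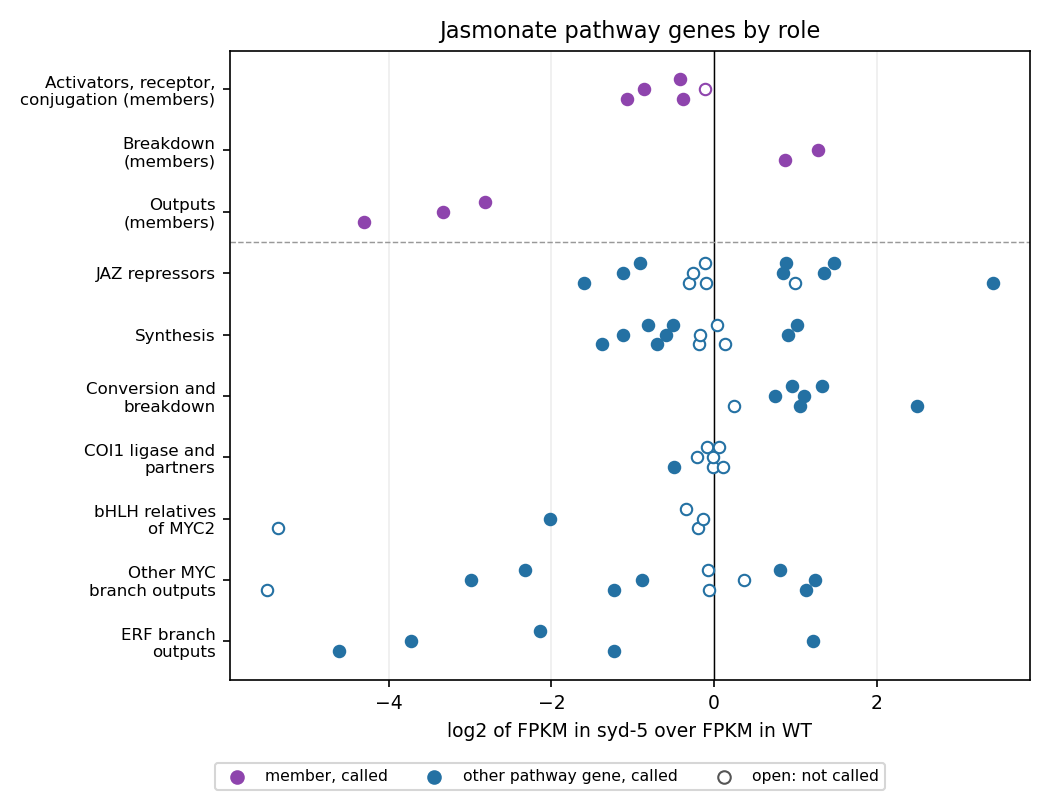
Log2 fold change (syd-5 over WT) of the 10 members (purple, above the dashed line) and of the 60 tested genes of 7 jasmonate lists (blue), with called genes filled and genes that were not called open. The breakdown members and 6 of the 7 genes in the conversion and breakdown row are filled and lie right of 0. The output members are filled and lie left of 0, while the rows of other MYC branch outputs and of ERF branch outputs hold points on both sides.

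Tissue markers were read beside these results. The 5 leaf and photosynthesis markers spanned 634 to 9983 FPKM in syd-5 and 227 to 8061 FPKM in WT. Their sums were 17089 FPKM in syd-5 and 12496 FPKM in WT, and 3 of them rose, none fell and 2 were not called. All 5 had a mean of 100 FPKM or more, a class in which 33.0% of tested genes were higher and 13.4% lower. The 6 root markers spanned 0.502 to 541 FPKM in syd-5 and 0.353 to 598 FPKM in WT. Their sums were 565 FPKM in syd-5 and 621 FPKM in WT. Of the 5 tested 1 rose (SHR), none fell and 4 were not called, against 14.1% higher and 18.0% lower among all tested genes. The listed spans of LHCB3, CASP1 and PYK10 are shared with other genes, so that their values are less certain. Leaf and root transcripts were thus present in both genotypes, with no marker of either list at 0, and their part in the results was not tested.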

How the data were processed

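RNA from whole seedlings was sequenced in 3 syd-5 and 3 WT libraries. The submitters' processing notes name Bowtie2, TopHat2 (version 2.0.4), bedtools and the build TAIR10 without roles, and which program wrote the table is not known from them. The authors deposited 1 expression value per gene and genotype, read here as FPKM from the column layout and the values, since the header names no unit. The p-value and the q-value of each gene were taken as deposited. Adjusting the 19868 p-values again by the Benjamini-Hochberg method gave the same q-values (largest difference 5.22e-07). How the libraries were combined is not given, and depth is unknown.

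Log2 fold changes were computed as syd-5 over WT without a pseudocount. Genes were called at q of at most 0.05, and the adjustment was tested on simulated data. The 10 members and 64 pathway genes all matched a RefSeq gene table (assembly TAIR10.1), used for symbols only. Coordinates are those of the deposited table, with starts counted from 1. From each pathway list the text names up to 3 called genes with the smallest q (ties by larger fold change) and up to 2 abundant genes that were not called; others were chosen after their values were seen. Members, lists and rules were chosen with earlier results of these data known. The planned counts of promoter motifs and the search for the closest proteins were not made, as no sequences were used here. Python 3.11.15, pandas 2.3.3 and numpy 2.4.6 were used.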

Additional observations from a re-analysis of the deposited data

How the results depend on the processing

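The 42 member fold changes recomputed from changed values (pseudocounts, rescaling, centring, VSP1 and VSP2 summed) carry no new test and bear on size only. None reversed, but none could. An equal pseudocount on both values cannot reverse a direction, nor can summing 2 genes that both fell. The rescaling shift of -0.13 and the centring on a median of -0.01 were too small to reverse any member. The 10 members were read again with another adjustment or threshold, 30 readings in all, and 3 lost the call. These were MYC4 with the adjustment over all listed genes, and MYC3 and MYC4 at q of at most 0.01. COI1 was not called as reported, so that its readings among the 30 could not lose a call. Counts of members that fell were 6 with the adjustment over all listed genes and 5 at q of at most 0.01, against 7 as reported, and 2 rose in each. With genes of a mean below 1 FPKM left out of the adjustment, 7 fell and 2 rose. No member was left out there, since that mean is over both genotypes. TAT3 (0.641 FPKM in syd-5) and CYP94B3 (0.649 FPKM in WT) passed it only through their other genotype. The share of all tested genes called at these other settings is not given here. Requiring at least a 2-fold difference left 4 members lower and 1 higher, and 12 pathway genes lower and 11 higher, against 19 and 17. With that requirement 8.27% of all tested genes were lower and 3.29% higher. A pseudocount of 1 FPKM changed the fold of CYP94B3 from 2.43 to 1.56 and the log2 fold change of TAT3 to -1.75. Leaving out COI1, whose span is shared and which was not called, cannot change the counts of 7 and 2. Leaving out VSP1 and VSP2, which both fell, leaves 5 that fell and 2 that rose by subtraction alone. Of 56 recomputed counts for single pathway lists, 49 stayed within 1.5 times and 7 did not. Some that stayed were 0 throughout: conversion and breakdown genes that fell, and COI1 partners and MYC2 relatives that rose. TPL, the only call among the COI1 partners, was lost at q of at most 0.01 and at 2-fold. NIG1, the only call among the MYC2 relatives, was lost at q of at most 0.01 and with low genes left out. The other counts that moved, at 2-fold, were of JAZ and synthesis genes. No paired analysis was possible because the table holds 1 value per genotype, and leaving out single libraries was not possible for the same reason. The depth behind the values is unknown, so that no floor can be given for the low ones.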
